A study of Homo sapiens with 6 samples.

Results

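The genes that write, copy or erase DNA methylation, and those of Polycomb repressive complex 2 (PRC2), were followed across the series as a set of 10. They are the DNA methyltransferase genes DNMT1, DNMT3A and DNMT3B, the maintenance factor gene UHRF1, the TET dioxygenase genes TET1, TET2 and TET3, and the PRC2 core subunit genes EZH2, SUZ12 and EED. The genes were chosen by symbol, and all 10 were found among the 58735 genes of the deposited table. Of the 10, 9 had a mean of at least 1 FPKM (a level scaled to gene length and to a depth factor of each library) over the 6 libraries. These 9 were tested within a fit of 13972 genes, and TET1 was below that level.

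RNA sequencing had been carried out on cells labelled SW480, an established human line of colorectal adenocarcinoma, in 3 libraries labelled DDX39B overexpression and 3 labelled control (genotype WT). Cells of both groups were grown in Leibovitz's L-15 medium with 10% FBS at 37°C, without CO2, and 1.3 ug of total RNA went into each library. No label says which vector was used, for how long, or whether the libraries came from separate cultures, so p-values measure the spread between these libraries, which may be technical. The genotype label of the controls names no vector control.

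DDX39B, an RNA helicase of mRNA splicing and export and the gene that the labels say was overexpressed, went against its label. The libraries labelled overexpression held 15.02, 13.9 and 14.03 FPKM of DDX39B, against 39.3, 34.6 and 41.9 FPKM in the libraries labelled control. Its change by limma was -1.37 on the log2 scale (SE 0.079, adjusted p = 6.93e-06). Every direction below is therefore drawn from the labels as given, and the groups are called overexpression-labelled and control-labelled. Labels exchanged between the groups, and groups that come from different cells, cannot be told apart here from an effect of DDX39B. If the labels were exchanged, every direction below would be the reverse. The groups stood far apart: log2 levels correlated across genes (which are not independent replicates) at 0.676 to 0.685 between groups and at 0.974 or more within a group. Of the 13972 genes tested, 10726 (76.8%) passed an adjusted p of 0.05. Read totals were 16963075 to 17463697 per library. Mitochondrial genes took 6.00% to 6.23% of reads in overexpression-labelled and 4.26% to 5.02% in control-labelled libraries, and 25898 to 26107 genes had reads under the overexpression label, against 24100 to 24350 under the control label. Of 12 colorectal epithelial markers, 7 were tested and all 7 were higher under the overexpression label, but 4 of them (CDX2, CDH1, VIL1 and KRT19) reached 1 FPKM in that group only and so passed the filter through it. The list summed to 1973 to 1997 FPKM in overexpression-labelled libraries, against 358 to 430.4 FPKM in control-labelled libraries. CDX2, an intestinal homeobox factor that helps define the cell type, had 1059 reads under the overexpression label and 0 under the control label, and CDX1 had 0 reads in all 6. KRT19 averaged 500.2 FPKM under the overexpression label and 0.251 FPKM under the control label, and EPCAM 171 FPKM under the overexpression label and 2.72 FPKM under the control label. KRT20, below the level for testing and chosen after its values were seen, ran the other way, with 6 reads under the overexpression label and 80 under the control label. Markers of leukocytes summed to at most 2.31 FPKM and those of fibroblasts to at most 8.30 FPKM in any library. Endothelial markers summed to 1.06 to 1.48 FPKM under the overexpression label and to 36.2 to 50.7 FPKM under the control label, mostly from ESAM, with KDR and EMCN at 0 reads in all 6 libraries. On the same list VWF, also below the level for testing and chosen after its values were seen, went against the sum. It had 326 reads under the overexpression label and 24 under the control label. The part of these differences in the results below was not tested.

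DNA methylation in mammals is laid down on cytosines that precede guanines. DNMT3A and DNMT3B place most new marks, and DNMT1, brought by UHRF1 to newly replicated sites, copies them to the daughter strand. TET enzymes oxidise the methyl group, which opens the way to its removal. PRC2 methylates histone H3 at the lysine known as H3K27 through EZH2, or through its paralogue EZH1, and needs SUZ12 and EED for stability and activity. In the gut epithelium EZH2, UHRF1 and DNMT1 are typical of dividing crypt cells, and gain of methylation at promoter CpG islands is a known feature of colorectal tumours.

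Promoter sequences of 6 of the genes are shown for what they hold at the start of transcription. All 10 genes matched RefSeq entries (GRCh38.p14), with 22 start sites in all, and for each the start nearest to that of the deposited table was taken, with 250 bases before and 50 after it. The first 4 are those in which an E2F motif was found. E2F factors drive genes of the S phase, and the motif was searched as TTTCCCGC, TTTCGCGC, TTTGCCGC or TTTGGCGC on both strands (capitals mark it, and no matches overlapped). It was present in 1164 of 35116 RefSeq promoters of the same length (3.31%). Each form of the motif holds a CpG site. Promoters with 30 or more CpG sites, as in these 4 genes, made up 22.4% of all, and no share with the motif is given for them. The start used for DNMT1 lies 36333 bases inside the limits that the table gives for the gene, and that for UHRF1 6421 bases inside.
EZH2, chr7:148884242-148884541, minus strand: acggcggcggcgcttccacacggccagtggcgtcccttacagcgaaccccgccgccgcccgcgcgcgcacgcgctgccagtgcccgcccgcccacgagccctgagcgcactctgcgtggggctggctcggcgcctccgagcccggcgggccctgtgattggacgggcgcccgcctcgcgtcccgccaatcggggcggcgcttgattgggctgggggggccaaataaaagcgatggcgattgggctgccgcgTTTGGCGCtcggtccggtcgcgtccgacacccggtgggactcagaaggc
SUZ12, chr17:31936757-31937056, plus strand: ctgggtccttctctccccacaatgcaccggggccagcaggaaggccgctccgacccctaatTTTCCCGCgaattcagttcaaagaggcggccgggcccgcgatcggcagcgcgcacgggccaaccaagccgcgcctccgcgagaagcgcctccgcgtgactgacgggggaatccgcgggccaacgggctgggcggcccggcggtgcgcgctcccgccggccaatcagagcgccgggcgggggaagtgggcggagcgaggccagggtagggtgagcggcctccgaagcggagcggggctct
DNMT1, chr19:10194904-10195203, minus strand: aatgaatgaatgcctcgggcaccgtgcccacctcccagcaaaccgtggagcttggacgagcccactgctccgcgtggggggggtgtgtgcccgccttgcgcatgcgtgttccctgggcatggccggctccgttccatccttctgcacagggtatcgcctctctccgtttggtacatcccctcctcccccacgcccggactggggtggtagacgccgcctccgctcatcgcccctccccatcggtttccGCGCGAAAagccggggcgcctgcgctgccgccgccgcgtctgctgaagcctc
UHRF1, chr19:4909251-4909550, plus strand: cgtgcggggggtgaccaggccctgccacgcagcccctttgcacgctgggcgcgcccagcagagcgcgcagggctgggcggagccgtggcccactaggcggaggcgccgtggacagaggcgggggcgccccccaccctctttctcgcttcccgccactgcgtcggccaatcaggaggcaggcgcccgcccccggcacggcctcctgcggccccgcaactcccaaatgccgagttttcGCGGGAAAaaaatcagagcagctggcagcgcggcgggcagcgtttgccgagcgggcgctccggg
Counted from 0 at the start site, the matches began at position 1 in EZH2, -2 in DNMT1, -14 in UHRF1 and -189 in SUZ12. Another RefSeq start of UHRF1 held a match of its own, TTTCGCGC, at -160. EED is shown as the PRC2 core subunit gene whose window held no match. TET1, with its CpG sites in capitals, is shown because it was the only one of the 10 close to 0 reads in a group.
EED, chr11:86244503-86244802, plus strand: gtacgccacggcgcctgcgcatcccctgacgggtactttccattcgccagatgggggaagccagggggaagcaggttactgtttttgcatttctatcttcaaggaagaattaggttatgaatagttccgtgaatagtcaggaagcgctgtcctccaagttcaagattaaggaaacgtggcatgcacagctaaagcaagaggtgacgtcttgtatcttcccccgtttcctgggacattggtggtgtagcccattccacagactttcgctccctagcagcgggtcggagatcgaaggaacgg
TET1, chr10:68560087-68560386, plus strand: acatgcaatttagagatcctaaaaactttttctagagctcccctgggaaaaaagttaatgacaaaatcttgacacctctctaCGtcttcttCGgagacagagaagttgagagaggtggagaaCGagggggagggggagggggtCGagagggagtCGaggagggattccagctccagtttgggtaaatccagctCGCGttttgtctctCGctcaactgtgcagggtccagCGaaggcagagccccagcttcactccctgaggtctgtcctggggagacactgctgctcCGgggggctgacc
The TET1 window held 10 CpG sites and that of EED 16, below and above the median of 14 over all RefSeq promoters. EZH2 with 46, TET3 with 45, SUZ12 with 40, UHRF1 with 36 and DNMT1 with 30 were above the upper quartile of 28. The DNMT3B window held 3, and lies 17467 bases inside the table's limits for that gene. A match or a count of letters is a description of the window and says nothing of binding or methylation, which were not measured here.

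Of the 10 genes, 8 fell under the overexpression label and DNMT3A did not pass the test. TET1, with more reads under the overexpression label, was below the level for testing, and TET2 reached 1 FPKM in the control-labelled group only, so the filter bears on both. Over all tested genes 39.3% were lower and 37.5% higher. In the same 8 genes every overexpression-labelled library lay below every control-labelled library, as was so for 40.9% of all tested genes, with another 39.2% apart in the other direction (80.1% in all). Summed over the 10 genes the level was 109 to 111 FPKM in overexpression-labelled and 158 to 171 FPKM in control-labelled libraries. The sizes were ordinary for this comparison: the median size of the log2 fold change was 0.575 for the 9 genes and 0.622 over all genes tested, and 3 of the 9 exceeded the median of all genes. In bulk RNA, fewer cells that express a gene and less RNA per cell cannot be told apart.

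**Figure D1:**
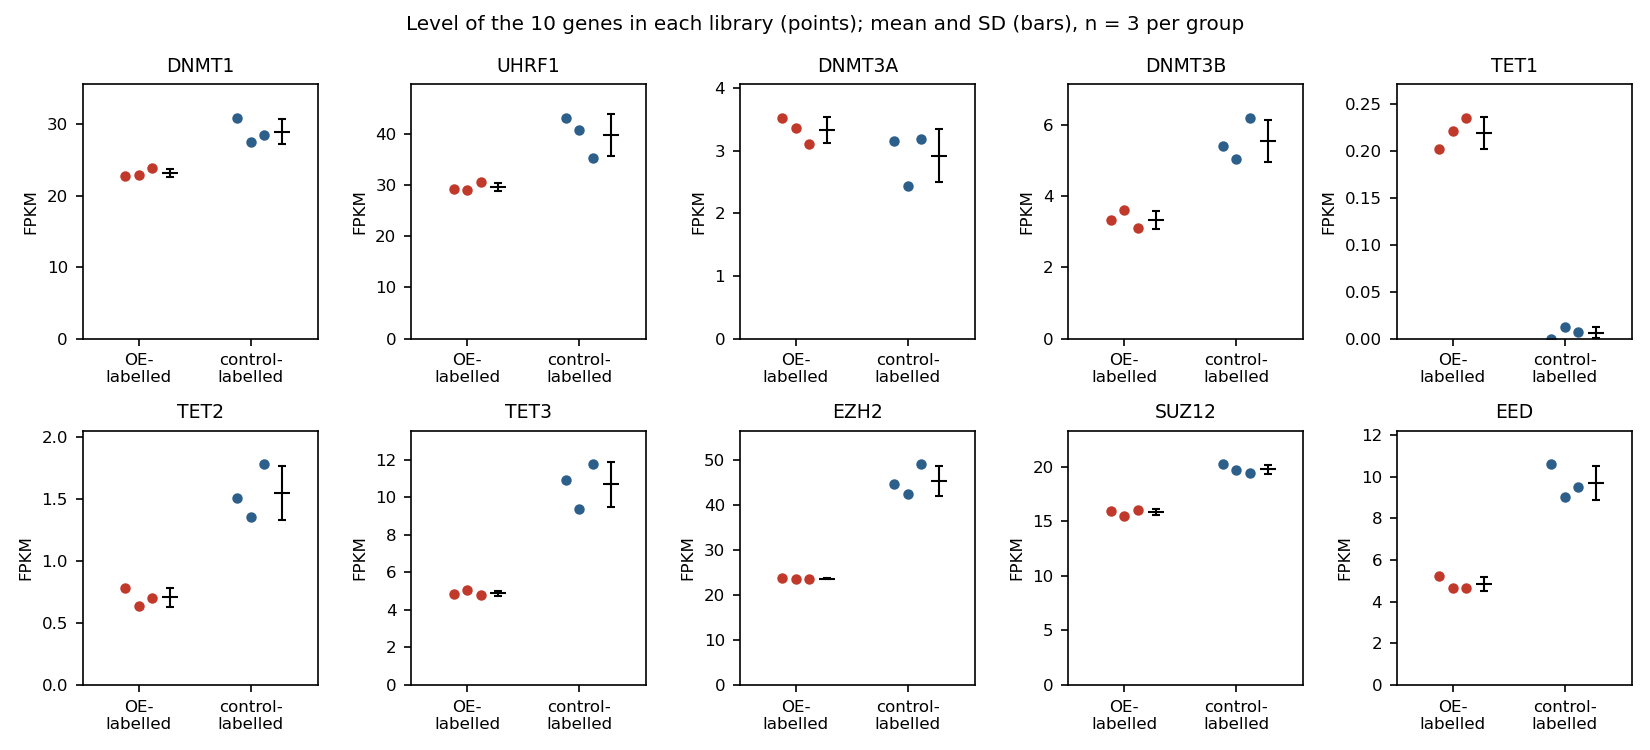
FPKM of each of the 10 genes in the 3 overexpression-labelled (OE-labelled, red, left) and 3 control-labelled libraries (blue, right), with mean and SD as bars and an own axis from 0 for each gene. In 8 genes all red points lie below all blue points, in TET1 above them, and in DNMT3A the groups overlap.

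Among the maintenance genes, DNMT1 and UHRF1 were both modestly lower. DNMT1 (ENSG00000130816, chromosome 19, 10133345 to 10231286, minus strand, GRCh38) measured 22.7, 22.9 and 23.8 FPKM in overexpression-labelled libraries, against 30.9, 27.6 and 28.5 FPKM in control-labelled ones. The groups did not overlap, and the gap from the highest overexpression-labelled to the lowest control-labelled library was wider than the range of either group. The mean over 3 libraries was 23.2 ± 0.60 FPKM (SD) under the overexpression label, 1.25-fold lower than under the control label, and the change by limma was -0.31 on the log2 scale (SE 0.059, adjusted p = 2.49e-03). DNMT1 overlaps S1PR2 on the same strand, a gene with 354 and 214 reads beside the 12156 and 14168 reads of DNMT1 in overexpression-labelled and control-labelled libraries.
UHRF1 (ENSG00000276043, chromosome 19, 4903080 to 4962154, plus strand), which reads newly replicated methylated DNA and recruits DNMT1, was the gene of the 10 with the highest FPKM under the overexpression label. Its values were 29.3, 29.1 and 30.6 FPKM in overexpression-labelled libraries and 43.3, 40.9 and 35.3 FPKM in control-labelled ones. The control-labelled libraries spread more widely, the third lying nearest to the other group. UHRF1 was 1.34-fold lower (limma log2 fold change -0.41 with SE 0.081, adjusted p = 3.10e-03). The ratio of DNMT1 to UHRF1 within a library was 0.775, 0.789 and 0.779 under the overexpression label and 0.715, 0.673 and 0.808 under the control label. These ratios overlapped (exact two-sided permutation p = 0.4, where 3 against 3 libraries allow no p below 0.1).

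The enzymes of new methylation did not share a direction: DNMT3B fell and DNMT3A did not pass the test. DNMT3B (ENSG00000088305, chromosome 20, 32762385 to 32809356, plus strand), the form typical of embryonic and tumour cells, measured 3.32, 3.60 and 3.10 FPKM under the overexpression label and 5.41, 5.04 and 6.20 FPKM under the control label. Its groups did not overlap, and its level was 1.66-fold lower (limma log2 fold change -0.59 with SE 0.087, adjusted p = 7.23e-04). DNMT3A (ENSG00000119772, chromosome 2, 25227855 to 25342590, minus strand), the form found in most adult tissues, measured 3.53, 3.37 and 3.12 FPKM under the overexpression label and 3.15, 2.44 and 3.18 FPKM under the control label. Here the groups overlapped, the second control-labelled library standing lowest. The log2 fold change of DNMT3A was 0.15, with a 95% interval of -0.08 to 0.38 (limma adjusted p = 0.197). Its call depended on the scaling: when FPKM was scaled to each library's summed reads the change was 0.23 (limma adjusted p = 0.048), and with limma's voom on reads it was 0.31 (adjusted p = 0.025). Under each of these scalings 41.5% of all tested genes were higher.

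A ratio within a library does not depend on its scaling, and the ratio of DNMT3A to DNMT3B differed between the groups. It was 1.06, 0.935 and 1.01 in overexpression-labelled libraries, against 0.583, 0.483 and 0.514 in control-labelled ones. Means of 1.002 ± 0.064 and 0.526 ± 0.051 (SD, n = 3 each) differed 1.90-fold with no overlap, and the exact two-sided permutation p was 0.1, the smallest that this design allows. By FPKM, DNMT3A and DNMT3B stood at like levels under the overexpression label, while DNMT3B was the higher of the pair in every control-labelled library. In reads, DNMT3A was the higher in both groups (2148 against 828 under the overexpression label, 1751 against 1282 under the control label). Of the FPKM summed over the 3 methyltransferase genes, DNMT3A made up 11.2% ± 0.79 in overexpression-labelled and 7.77% ± 0.74 in control-labelled libraries. DNMT3B made up 11.2% ± 0.87 under the overexpression label and 14.8% ± 1.4 under the control label. For DNMT1 the share was 77.6% ± 1.5 in overexpression-labelled and 77.4% ± 1.9 in control-labelled libraries (SD, n = 3 each). DNMT1 was the main methyltransferase transcript per kilobase in all 6 libraries.

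**Figure D2:**
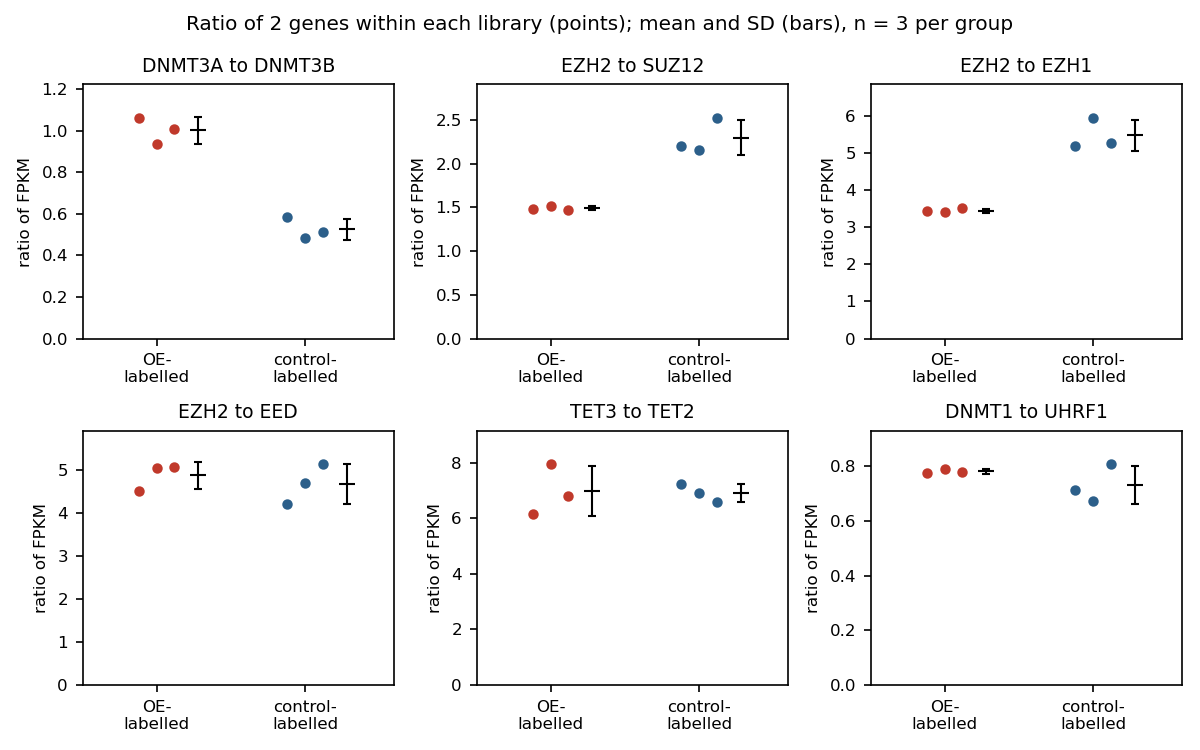
Ratio of the FPKM of 2 genes within each library, for 6 pairs, in overexpression-labelled (red, left) and control-labelled libraries (blue, right), with mean and SD as bars. The ratios of DNMT3A to DNMT3B, EZH2 to SUZ12 and EZH2 to EZH1 do not overlap between the groups, and the other 3 do.

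TET3 and TET2 were lower by nearly the same factor. TET3 (ENSG00000187605, chromosome 2, 73986404 to 74108176, plus strand), the most abundant TET transcript here, measured 4.84, 5.04 and 4.79 FPKM in overexpression-labelled libraries and 10.9, 9.38 and 11.8 FPKM in control-labelled ones. Its change of -0.98 on the log2 scale (SE 0.085, adjusted p = 4.98e-05 by limma) was the largest of the 9 tested genes, and 32.1% of all tested genes changed by more. TET2 (ENSG00000168769, chromosome 4, 105145875 to 105279816, plus strand), a frequent target of mutation in blood cancers, measured 0.785, 0.635 and 0.707 FPKM under the overexpression label and 1.51, 1.36 and 1.78 FPKM under the control label. In both genes the highest overexpression-labelled library stayed well under the lowest control-labelled one. TET3 was 2.18-fold and TET2 2.19-fold lower as ratios of mean FPKM. The log2 fold change of TET2 was -0.57 (SE 0.094, limma adjusted p = 1.21e-03). The added 1 FPKM compresses low values, and with 0.1 FPKM added instead the change was -1.02. The ratio of TET3 to TET2 was 6.17, 7.94 and 6.78 under the overexpression label and 7.22, 6.92 and 6.59 under the control label (exact two-sided permutation p = 1.0).

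TET1 (ENSG00000138336, chromosome 10, 68560656 to 68694482, plus strand), the TET enzyme of embryonic stem cells, went the other way but at a low level. It had 33, 37 and 39 reads under the overexpression label, against 0, 2 and 1 reads under the control label. These made 0.201, 0.221 and 0.235 FPKM under the overexpression label and 0, 0.013 and 0.0064 FPKM under the control label. All 3 overexpression-labelled libraries lay above all 3 control-labelled libraries. Over the pooled reads (109 and 3) TET1 was 33.9-fold higher, with an exact 95% counting interval of 11.3 to 166.7 that covers counting error only. TET1 was tested only in the fit without the filter on low values, in which 24.0% of 33913 genes were higher. There its log2 fold change on the FPKM + 1 scale was 0.28 (SE 0.027, limma adjusted p = 4.21e-04). The pseudogene COX20P1, which lies within TET1 on the same strand, had 23 reads in overexpression-labelled and 104 in control-labelled libraries, so its reads moved in the opposite direction. TET1 made up 3.76% ± 0.32 of the summed TET FPKM under the overexpression label and 0.055% ± 0.060 under the control label. The share of TET3 was 84.0% ± 1.3 in overexpression-labelled and 87.3% ± 0.53 in control-labelled libraries, and that of TET2 was 12.2% ± 1.4 in overexpression-labelled and 12.7% ± 0.51 in control-labelled libraries (SD, n = 3 each).

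All 3 core subunits of PRC2 fell, with larger fold changes for EZH2 and EED than for SUZ12. EZH2 (ENSG00000106462, chromosome 7, 148807383 to 148884321, minus strand), the catalytic subunit, measured 23.7, 23.5 and 23.6 FPKM in overexpression-labelled libraries and 44.6, 42.5 and 49.0 FPKM in control-labelled ones. The overexpression-labelled values were nearly equal (SD 0.068 FPKM, against 3.3 FPKM in control-labelled libraries), and EZH2 was 1.92-fold lower (limma log2 fold change -0.91 with SE 0.062, adjusted p = 1.52e-05). EED (ENSG00000074266, chromosome 11, 86244544 to 86278813, plus strand), which binds the finished mark and stimulates EZH2, measured 5.23, 4.65 and 4.65 FPKM under the overexpression label and 10.6, 9.01 and 9.52 FPKM under the control label. It was 2.01-fold lower, with no overlap (limma log2 fold change -0.87 with SE 0.078, adjusted p = 5.90e-05). SUZ12 (ENSG00000178691, chromosome 17, 31937018 to 32001045, plus strand), the scaffold of the complex, measured 15.9, 15.5 and 16.1 FPKM under the overexpression label, against 20.2, 19.7 and 19.4 FPKM under the control label. Its level was 1.25-fold lower (limma log2 fold change -0.30 with SE 0.047, adjusted p = 9.21e-04). The pseudogene SUZ12P1 had 1386 reads in overexpression-labelled and 928 in control-labelled libraries beside the 5552 and 6456 reads of SUZ12, and as the counting is not described, reads may be shared between these copies.

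Proportions of the PRC2 subunits were compared within libraries. The ratio of EZH2 to EED was 4.52, 5.06 and 5.07 in overexpression-labelled and 4.21, 4.71 and 5.14 in control-labelled libraries, which overlap (exact two-sided permutation p = 0.7, in a design that allows none below 0.1). The ratio of EZH2 to SUZ12 was 1.49, 1.51 and 1.47 in overexpression-labelled libraries, against 2.20, 2.16 and 2.53 in control-labelled libraries, with no overlap and the smallest p the design allows, 0.1. EZH1, the paralogue of EZH2 found in resting cells, measured 6.85 ± 0.11 FPKM under the overexpression label and 8.35 ± 1.1 FPKM under the control label (SD, n = 3 each; limma adjusted p = 0.0471). The ratio of EZH2 to EZH1 was 3.44 ± 0.054 in overexpression-labelled and 5.47 ± 0.42 in control-labelled libraries (SD, n = 3 each; exact two-sided permutation p = 0.1). EZH2 was the more abundant of the 2 paralogues in all 6 libraries. Of the 7 ratios and 6 shares computed in all, 8 did not overlap between the groups and none could pass a threshold of 0.05 in this design. These quantities reuse the same genes. Of all single genes tested, 80.1% had groups that did not overlap, and no such share is given for ratios of other gene pairs.

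**Figure D3:**
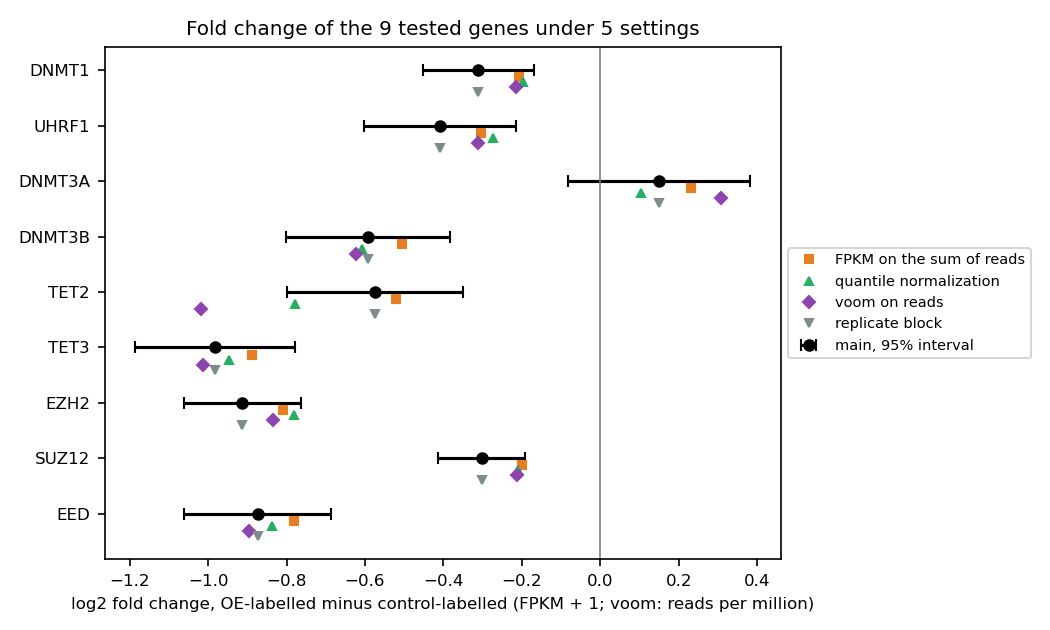
Log2 fold change (overexpression-labelled minus control-labelled) of the 9 tested genes, with the 95% interval of the limma fit in black and the values under 4 other settings in colour. All settings shown place 8 genes below 0 and DNMT3A above it.

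By level, the order under the overexpression label was UHRF1 (29.7 FPKM), EZH2 (23.6), DNMT1 (23.2), SUZ12 (15.8), TET3 (4.89), EED (4.84), DNMT3B (3.34), DNMT3A (3.34), TET2 (0.709) and TET1 (0.219). EZH2 and DNMT1 overlapped there, as did TET3 and EED, and DNMT3B and DNMT3A. Under the control label EZH2 led (45.3 FPKM), before UHRF1 (39.8), DNMT1 (28.999), SUZ12 (19.8), TET3 (10.7), EED (9.71), DNMT3B (5.55), DNMT3A (2.92), TET2 (1.55) and TET1 (0.0064). In that group only EZH2 and UHRF1, and TET3 and EED, overlapped as neighbours. These levels are FPKM, scaled by the deposited gene lengths (12020 bases for DNMT3A and 4630 for DNMT3B). The order between genes therefore rests on those lengths as well as on reads.

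Likeness was measured as the root mean square difference of log2(FPKM + 1) values over the 6 libraries, each gene centred on its mean. Among the 9 tested genes the closest pairs were DNMT1 and SUZ12 (0.040), TET3 and EZH2 (0.055) and DNMT3B and TET2 (0.075), and the farthest was DNMT3A and TET3 (0.568). Over all tested protein-coding genes, MRPL2 (0.020) and DDX19A (0.025) were nearest to DNMT1, BYSL (0.024) and SNAPIN (0.025) to UHRF1, and MAX (0.026) and KRBOX4 (0.029) to DNMT3A. ZNF227 and PRPF40B (0.030 each) were nearest to DNMT3B, CCDC86 and PDPK1 (0.020 each) to TET2, and ZNF641 (0.023) and RSL24D1 (0.024) to TET3. COPS5 (0.022) and RPL4 (0.025) were nearest to EZH2, BAG6 (0.016) and HNRNPK (0.018) to SUZ12, and AP3M1 and NAXE (0.048 each) to EED. With 2 groups this far apart, the measure mostly reflects the size of the group difference.

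Partners of the same pathways were called in both directions, as were all genes tested (37.5% higher and 39.3% lower). Of 11 tested cofactors of DNA methylation, 5 were higher and 5 lower, with a median log2 fold change of -0.15, where the median of all tested genes was -0.03. PCNA, the replication clamp to which DNMT1 binds, was 2.26-fold higher (213 ± 5.0 FPKM against 94.4 ± 13.2 FPKM in control-labelled libraries). TRIM28, a corepressor of zinc finger proteins that keeps methylation at imprinted and repeat DNA, was 2.04-fold higher, and AHCY, which clears the by-product of methyl transfer, 1.95-fold higher. CDCA7L, a paralogue of the HELLS partner CDCA7, was 2.41-fold lower. Chosen after their values were seen, UHRF2, the paralogue of UHRF1, was 2.02-fold lower and HELLS, a remodeller needed for methylation of packed DNA, 1.85-fold lower. DNMT3L, the inactive cofactor of DNMT3A and DNMT3B in germ cells, also chosen after its values were seen, had 0 reads in overexpression-labelled and 33 in control-labelled libraries, which is at least 11.8-fold lower, taking 3 reads per group as the floor.

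Genes listed as readers of methylated DNA and as partners of TET were likewise mixed. Of 8 genes listed as methyl-CpG binding proteins, 3 were higher and 4 lower (median -0.43). Their binding to methylated DNA was not measured. MBD3, a subunit of the NuRD complex, was 3.06-fold higher, while MBD2 was 2.36-fold, MBD4 2.48-fold and ZBTB4 1.79-fold lower. Of 14 tested partners of TET in demethylation, 5 were higher and 4 lower (median 0.14), with counts of 3 to 8 higher and 2 to 6 lower over the other settings. TDG, the glycosylase that removes the oxidised bases made by TET enzymes, measured 4.72 ± 0.31 FPKM under the overexpression label and 15.5 ± 0.61 FPKM under the control label (SD, n = 3 each), and was 3.28-fold lower. MBD4, a glycosylase as well as a binding protein, is on both lists. NEIL1, a glycosylase of base excision repair, was 4.23-fold higher and CXXC5, a CpG-binding zinc finger protein, 1.76-fold higher. Of the tested partners, NEIL1 reached 1 FPKM in the overexpression-labelled group only, so the filter bears on its place among the higher.

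Accessory subunits of PRC2 were 1 higher, 6 lower and 4 not past the threshold of 11 tested (median -0.24). The higher calls numbered 2 without the first control-labelled library, with FPKM on the sum of reads and with voom on reads. The lower calls numbered 4 to 6 over the other settings, and 4 without the first or the second overexpression-labelled library. MTF2, which guides the complex to CpG islands, measured 4.45 ± 0.17 FPKM against 11.9 ± 0.89 FPKM in control-labelled libraries and was 2.68-fold lower. AEBP2, of the alternative form of the complex, was 1.93-fold lower. The histone-binding subunits parted, RBBP7 being 1.58-fold higher and RBBP4 1.32-fold lower. Smaller falls past the threshold were seen for EZH1, JARID2 and LCORL. PHF1, PHF19, EPOP and LCOR did not pass, with log2 fold changes of -0.05, 0.09, 0.09 and -0.04. EZHIP, an inhibitor of PRC2, had 0 reads in all 6 libraries.

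Subunits of PRC1, a complex of which some forms read the PRC2 mark, were 8 higher and 11 lower of 23 (median -0.07). Among the higher, CBX7 reached 1 FPKM in the overexpression-labelled group only, so the filter bears on that count. RING1, a catalytic subunit, was 2.88-fold lower, whereas PHC2 was 5.38-fold higher (63.1 ± 1.6 FPKM, against 11.7 ± 0.66 FPKM in control-labelled libraries) and BCORL1 3.32-fold higher. Among 11 tested H3K27 demethylases and genes that oppose Polycomb, 3 were higher and 6 lower (median -0.30). KDM6B, which removes the PRC2 mark, was 1.68-fold lower, NSD3 was 2.68-fold and FOXK2 1.91-fold lower, and BAP1, which strips the PRC1 mark, was 2.44-fold higher. KDM6A, chosen after its values were seen, did not pass (log2 fold change 0.15, limma adjusted p = 0.217).

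**Figure D4:**
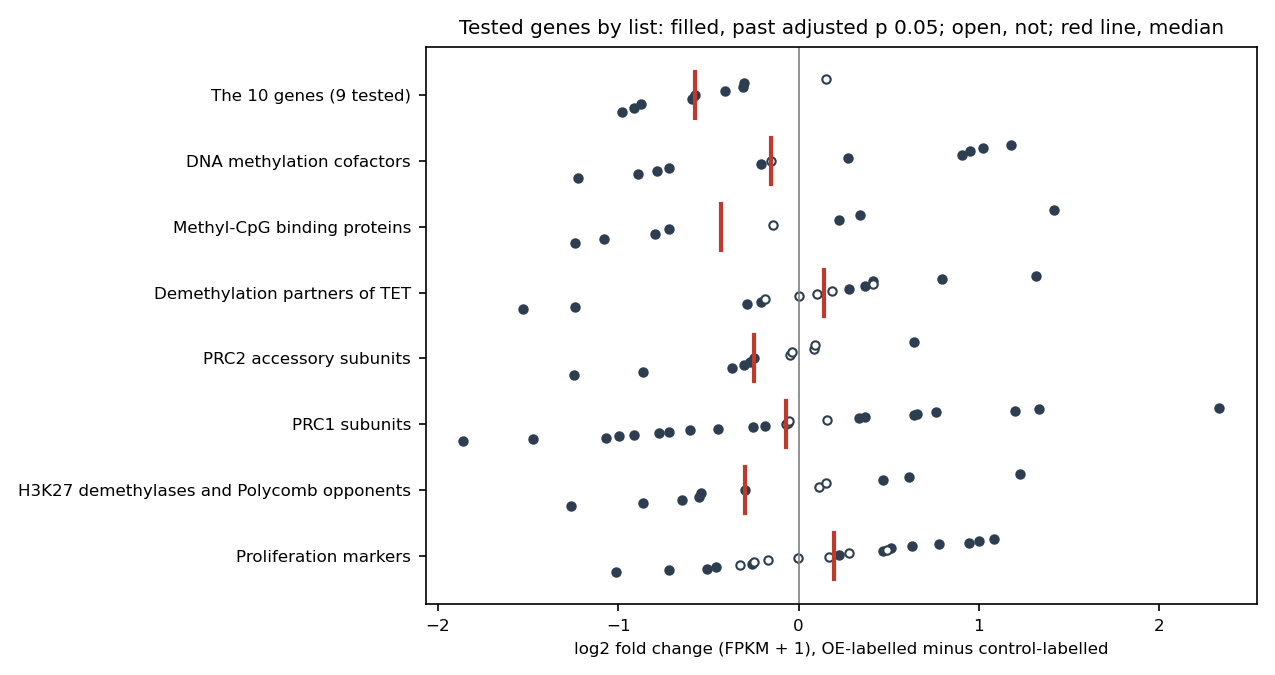
Log2 fold change (overexpression-labelled minus control-labelled) of each tested gene in the set of 10 and in 7 related lists, filled where the adjusted p was under 0.05 and open where not, with the list's median as a red line. The set of 10 has 8 filled points below 0, while the cofactor and PRC1 lists spread to both sides.

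Proliferation markers, many of them E2F targets as EZH2, UHRF1 and DNMT1 are known to be, moved in both directions. Of 20 tested, 8 were higher, 5 lower and 7 not past the threshold (median 0.20), with counts of 6 to 10 higher and 5 to 8 lower over the other settings. The 20 markers summed to 1017 to 1038 FPKM in overexpression-labelled and 747 to 962 FPKM in control-labelled libraries. MCM7 and RRM2 were higher, at 206 ± 6.2 against 96.8 ± 4.1 FPKM and 39.6 ± 0.81 against 19.97 ± 6.0 FPKM in control-labelled libraries. AURKA was higher as well (49.5 ± 2.1 against 26.3 ± 9.1 FPKM in control-labelled libraries), and CDK1 was lower (24.9 ± 0.71 against 51.7 ± 8.5 FPKM in control-labelled libraries; SD, n = 3 each throughout). The third control-labelled library was the lowest of its group for each of these genes, with RRM2 at 13.2 and AURKA at 16.7 FPKM there. The part of cell division in the levels of the 10 genes was not tested.

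Genes whose promoters are often methylated in colorectal tumours were followed as well, although no methylation was measured. Of 5 tested genes of the CpG island methylator panel, 1 was higher and 3 were lower. Without the third control-labelled library 2 were higher. Over all the alternatives, which include the fit without the filter, 1 to 3 were higher and 2 to 4 lower. CDKN2A was 3.61-fold lower, MGMT 1.69-fold and RUNX3 1.58-fold. Of a wider list of 20, 9 genes were tested, 3 higher and 6 lower, but 6 of the 9 reached 1 FPKM only in the group where they were high, so these counts were partly set by the filter. HLTF had 9 reads under the overexpression label and 12752 under the control label. SDC2 and TFPI2 had 0 reads under the overexpression label, against 1903 and 810 reads under the control label, which puts SDC2 at least 681-fold lower and TFPI2 at least 290-fold lower, while SFRP5 had 2385 reads against 3 in control-labelled libraries and was 741-fold higher (exact 95% counting interval 253 to 3595). Of 16 germline genes that DNA methylation keeps silent, 1 reached the level for testing, HORMAD1, and did so through the control-labelled group alone, with 2 reads in overexpression-labelled and 627 in control-labelled libraries (336-fold lower, exact 95% counting interval 92.8 to 2784). STK31, another of them, chosen after its values were seen, had 133 reads under the overexpression label and 3 under the control label.

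Neighbours within 1 megabase on each side were counted for each gene, beside 39.3% lower and 37.5% higher over all tested genes. The windows held 5 to 44 tested genes, and no window was tested as a region. Of the 9 tested neighbours of EED, 8 were lower and 0 higher, and their median log2 fold change was -0.87, as large as that of EED itself. They included PICALM, a clathrin adaptor (23.02 ± 0.37 FPKM, against 37.3 ± 2.0 FPKM in control-labelled libraries), CREBZF, a bZIP protein (28.2 ± 1.2 against 51.3 ± 6.2 FPKM in control-labelled libraries) and PRSS23, a serine protease (2.71 ± 0.15 against 23.7 ± 1.9 FPKM in control-labelled libraries; SD, n = 3 each). UHRF1 had 23 lower and 8 higher neighbours of 40 (median -0.39, beside its own -0.41). By contrast TET3 had 23 higher and 11 lower of 42 (median 0.28), DNMT3B 12 higher and 5 lower of 23 (median 0.24), and SUZ12 12 higher and 3 lower of 19 (median 0.45), although each of these 3 genes was itself lower. TET1, below the level for testing, had more reads under the overexpression label (109, against 3 in control-labelled libraries). By those reads TET1 stood opposite to its surroundings, as 17 of its 22 tested neighbours were lower and 2 higher (median -0.84). DNMT1 had 15 higher and 15 lower of 44, EZH2 4 higher and 8 lower of 17, TET2 2 higher and 3 lower of 5, and DNMT3A 9 higher and 2 lower of 17.

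**Figure D5:**
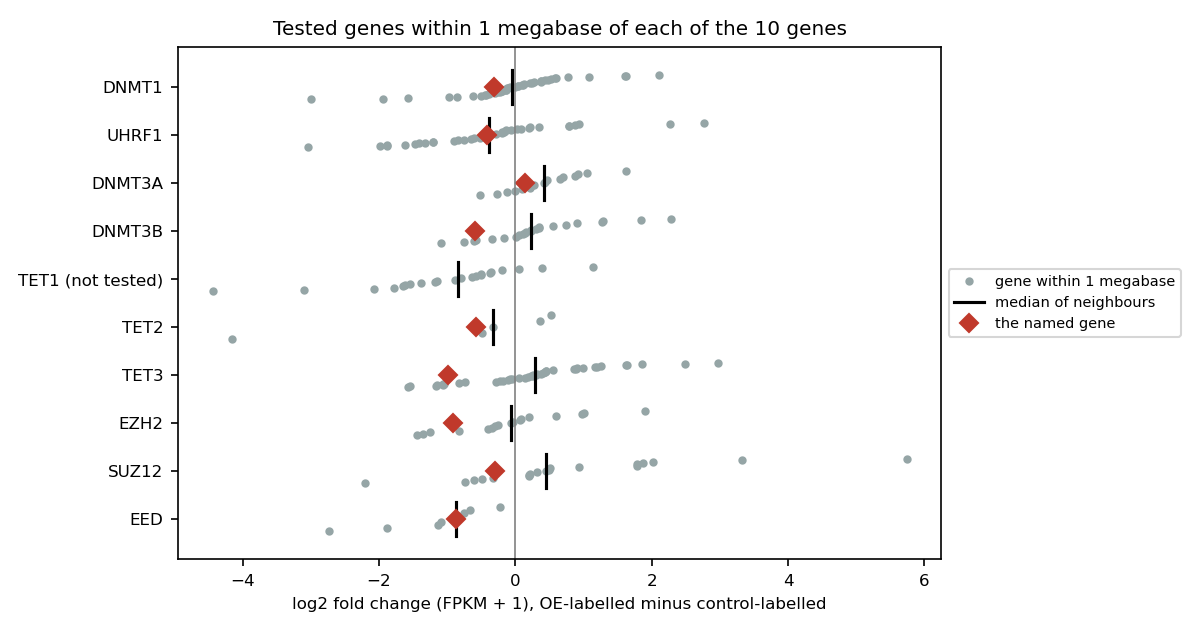
Log2 fold change (overexpression-labelled minus control-labelled) of tested genes within 1 megabase of each of the 10 genes (grey points, median as a black line) and of the gene itself (red diamond, not drawn for TET1, which was not tested). The diamond of EED lies at the median of its neighbours, and those of TET3, DNMT3B and SUZ12 lie below medians above 0.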

How the data were processed

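The FPKM values are as the authors deposited them, in 1 table that also lists gene lengths; the unit follows from its name and values. How reads were aligned and counted, and whether by strand, is not stated. Per the submitters' processing notes the build was mm10, but all 58735 identifiers agreed in start and end with human GENCODE 29 (GRCh38). Value times length gave whole reads (100% within 0.001 read). The depth factor behind the FPKM was 1.04 to 1.05 times the read total in overexpression-labelled libraries. In control-labelled libraries it was 0.958 to 0.995 times the read total, so this factor differed between the groups. The table held 0 further sample columns.

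The test was limma 3.58.1 (R 4.3.3) on log2(FPKM + 1) with trended variances, two-sided and with no covariate, in genes averaging 1 FPKM or more. P-values were adjusted by Benjamini-Hochberg over all genes tested, threshold 0.05. The fit was tested on simulated reads with known changes in a small part of the genes. That setting is unlike these groups, in which most tested genes differed. Folds are ratios of mean FPKM; against 0 reads they use 3 pooled reads as the floor, and with 1 to 3 reads an exact 95% interval for counting error. Ratios used exact permutation tests (scipy 1.17.1). The 10 genes and the 14 lists were chosen with earlier results of these data known. Named were DDX39B, the 10 genes, all PRC2 accessory subunits, up to 4 called genes per list by size of change with groups apart (or the 2 most abundant), and the 2 nearest genes by likeness; neighbours and others were picked with values in view. Some genes that the rule names are not reported here. Alternatives varied pseudocount, filter, scaling, variance model, the test (voom), the replicate block and each library.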

Additional observations from a re-analysis of the deposited data

How the results depend on the processing

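The 8 lower genes stayed lower and past the threshold under every alternative in which they were tested (16 for 6 genes, 15 for DNMT3B and TET2, which a filter of 5 FPKM removed). The count of the 10 genes called higher was 0 in the report and 1 with no filter on low values (TET1), 1 with FPKM on the sum of reads and 1 with voom on reads (DNMT3A in both). Leaving out each library in turn left 8 lower and 0 higher. The median log2 fold change of all genes moved by 0.104 with voom on reads and by 0.0902 with FPKM on the sum of reads, where DNMT3A stood at 0.31 and 0.23. Over all genes, 8155 were higher with no filter, and 2784 were higher and 3434 lower at a mean of at least 5 FPKM, as 33913 and 7796 genes were then tested; leaving out a library gave 4836 to 5403 higher and 5062 to 5699 lower. On the recovered reads, voom called 10810 genes, against 10726 on FPKM. With the replicate number as a block, 5111 genes were higher and 5395 lower, against 5241 and 5485 without it, and no call among the 10 genes changed. The numbers share only a label: same-numbered libraries correlated at -0.0059, -0.022 and 0.0075 in their deviations. With 0.1 FPKM added, the difference in the TET1 share was 4.36 percentage points (3.71 without) and in the TET3 share -4.43 (-3.24 without). Depth limits TET1, with 0 to 39 reads per library, and with 3 libraries a group no ratio could reach a p below 0.1.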
